A study of Homo sapiens with 4 samples.

Results

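Serine synthesis and folate one-carbon metabolism were followed through 10 enzymes, PHGDH, PSAT1, PSPH, SHMT1, SHMT2, MTHFD1, MTHFD2, MTHFD1L, GART and ALDH1L2, of the 19775 genes that the array names. Every probe set that carried one of these symbols and no other was taken, which gave 29 of 54613 probe sets, 19 for the 6 cytosolic enzymes and 10 for the 4 mitochondrial ones. A further 5 probe sets list MTHFD1L, SHMT1 or PHGDH beside other genes and were not used. The samples were 4 one-colour Affymetrix arrays of RNA from SNU638 cells, a human line established from gastric cancer. The sh-ACTL6A group (2 arrays) carried short hairpin RNA against ACTL6A, an actin-related subunit of the BAF, INO80 and TIP60 chromatin complexes, and the scramble group (2 arrays) carried scrambled RNA. Hairpins were delivered by lentivirus in the pLKO.1 vector, and infected cells were selected with puromycin.

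The series names an shRNA-1 and an shRNA-2, and the array labels do not say whether the array number is the hairpin number or whether arrays came from separate cultures. Hairpin, culture and array therefore cannot be told apart within the sh-ACTL6A group, and every p-value reflects array-to-array spread, which may be technical. The labels give Dulbecco's modified Eagle medium for the cells and the methods give RPMI, media that differ in serine, glycine and folate. Which one the profiled cells grew in is not settled by these sources.

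Cells make serine from a glycolytic intermediate through PHGDH, PSAT1 and PSPH. The serine hydroxymethyltransferases, SHMT1 in the cytosol and SHMT2 in mitochondria, move a carbon of serine onto tetrahydrofolate and leave glycine, one of the amino acids of glutathione. The mitochondrial folate enzymes oxidise that carbon and release formate, and the cytosolic ones use formate to build purines and thymidylate. Many tumours express the mitochondrial branch strongly, and the transcription factor ATF4 is a known activator of serine synthesis and mitochondrial folate genes.

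ACTL6A, the targeted gene, fell on both arrays. Its log2 signal was 10.16 and 10.32 on the sh-ACTL6A arrays, against 11.92 and 11.82 on the scramble arrays, a difference of -1.63 ± 0.14 (SE, limma adjusted p = 0.0408). It was the only gene called at adjusted p under 0.05 among 12286 genes tested, a share of 0.00814%. Genes were tested where the brightest probe set reached a mean log2 signal of 5.63, the median over all probe sets. Of the epithelial markers, 5 of 6 lay above this threshold, among them EPCAM and KRT18, and CLDN4 lay below it at a mean of 4.34. None of 3 leukocyte markers on the array did, and of 5 fibroblast and endothelial markers COL1A1, DCN and PECAM1 did. Median log2 signal was 5.70 and 5.83 on the sh-ACTL6A arrays and 5.79 and 5.80 on the scramble arrays.

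Promoter windows were read for 7 of the enzymes from a table of RefSeq sequences (GRCh38.p14), and run from 250 bases before to 50 after a start site. PSPH, SHMT2 and ALDH1L2 were not analysed here for promoter sequence. The stretches below are shown because the letters CCAAT, the core of the NF-Y box, occur on one strand or the other in a window of all 7, against 39.7% of 27305 genes and 34.6% of 35116 windows. They run 5′ to 3′ in the direction of the gene, over the 130 bases that end 1 base before a start site. For MTHFD1L they cover positions -200 to -71, and MTHFD1, whose CCAAT matches lie outside these bases, is not shown. Capitals mark CCAAT or its reverse complement ATTGG and, in MTHFD1L, also the E-box CACGTG and the C/EBP-ATF response element TGATGCAA.
PHGDH, chr1:119711804-119711933, + strand: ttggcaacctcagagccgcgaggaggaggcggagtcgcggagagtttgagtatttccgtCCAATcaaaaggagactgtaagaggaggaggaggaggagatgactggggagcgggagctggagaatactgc
PSAT1, chr9:78296995-78297124, + strand: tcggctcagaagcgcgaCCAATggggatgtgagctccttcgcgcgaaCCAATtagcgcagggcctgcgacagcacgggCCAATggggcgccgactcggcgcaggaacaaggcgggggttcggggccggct
SHMT1, chr17:18363551-18363680, - strand: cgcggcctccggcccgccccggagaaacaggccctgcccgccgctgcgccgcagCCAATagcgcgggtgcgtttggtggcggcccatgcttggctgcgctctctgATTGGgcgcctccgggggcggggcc
GART, chr21:33542893-33543022, - strand: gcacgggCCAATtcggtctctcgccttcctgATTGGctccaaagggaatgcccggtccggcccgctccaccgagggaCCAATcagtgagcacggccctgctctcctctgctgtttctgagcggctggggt
MTHFD2, chr2:74198485-74198614, + strand: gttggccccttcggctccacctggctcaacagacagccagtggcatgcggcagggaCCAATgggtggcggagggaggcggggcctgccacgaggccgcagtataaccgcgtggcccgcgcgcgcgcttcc
MTHFD1L, chr6:150866286-150866415, + strand: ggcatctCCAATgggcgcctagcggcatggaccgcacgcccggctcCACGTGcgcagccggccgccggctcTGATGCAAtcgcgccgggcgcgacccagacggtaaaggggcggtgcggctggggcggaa

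PSAT1 and GART carried 3 CCAAT matches each in these stretches, SHMT1 carried 2 and PHGDH and MTHFD2 carried 1. The response element through which ATF4 acts, searched as TGATGNAA on both strands, was found in MTHFD1L and in no other of the 7, against 4.46% of all genes. The core of the antioxidant response element bound by NRF2, searched as TGACNNNGC, was found in MTHFD2 alone, 6 bases after its start site, against 16.1% of genes. The E-box CACGTG was found in MTHFD1 and MTHFD1L, against 8.77% of genes. These are matches of letters in a short window, and binding was not measured here.

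None of the enzymes changed by the test. Of the 10, 8 passed the signal threshold, and 0 of these 8 were called, with 0 at an unadjusted p under 0.05, against 5.5% of all genes tested. Their log2 differences, sh-ACTL6A minus scramble, ran from -0.48 for SHMT2 to 0.15 for GART, with 3 above 0 and 5 below. The median was -0.05, against 0.01 for all genes tested. The arrays of the groups did not overlap for 2 of 8, PSAT1 and GART, against 34.6% of genes tested, so separation was no more frequent here than over the array. MTHFD1L and ALDH1L2 lay below the threshold on every probe set used and were not tested as genes. Precision is limited by having 2 arrays a group, and intervals are given because a p above the threshold does not show equal expression.

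**Figure D1:**
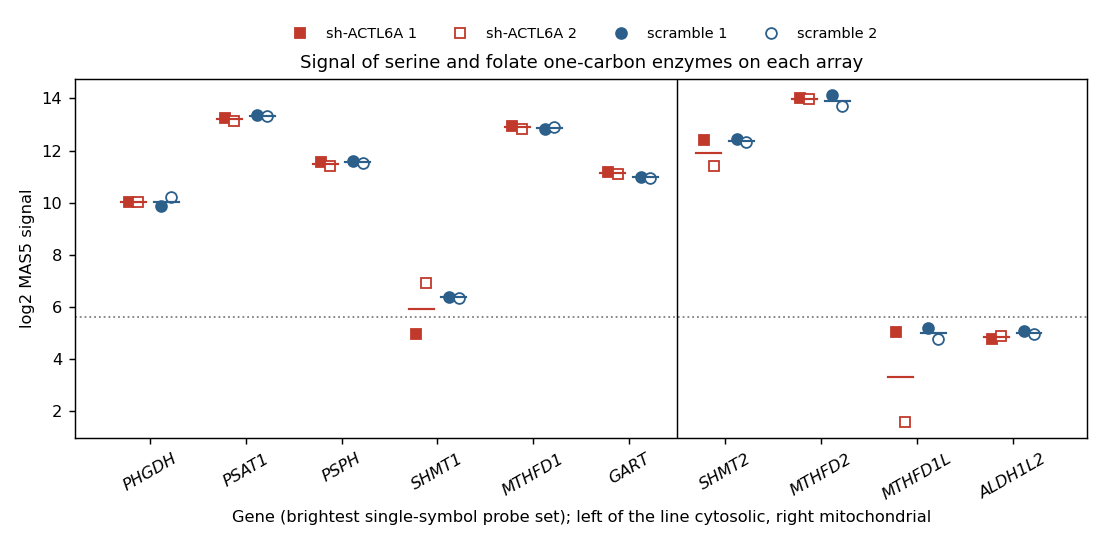
Log2 MAS5 signal (vertical axis) of the brightest probe set of each of the 10 enzymes (horizontal axis) on the sh-ACTL6A arrays (squares) and the scramble arrays (circles); short bars are group means and the dotted line is the threshold of 5.63. Points of a gene lie close together except for SHMT2, low on sh-ACTL6A replicate 2 alone, and the dim SHMT1 and MTHFD1L.

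Of the serine synthesis enzymes, PHGDH catalyses the entry step. Log2 signal of PHGDH was 10.02 and 10.05 on the sh-ACTL6A arrays, against 9.89 and 10.20 on the scramble arrays. Both sh-ACTL6A values lay between those of scramble. The difference was -0.01 ± 0.17 (SE, 95% confidence interval -0.40 to 0.37, limma adjusted p = 0.998), and this was the only probe set used.

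PSAT1, the aminotransferase of the middle step, read 13.26 and 13.13 on the sh-ACTL6A arrays, against 13.35 and 13.32 on the scramble arrays. Both sh-ACTL6A values were lower, and the difference was -0.14 ± 0.10 (SE, 95% confidence interval -0.36 to 0.08, limma adjusted p = 0.930). Its other probe set, 220892_s_at, overlapped between groups and differed by -0.04 ± 0.12 (SE).

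PSPH, the phosphatase that releases serine, read 11.57 and 11.39 on the sh-ACTL6A arrays, against 11.59 and 11.53 on the scramble arrays. The groups overlapped, and the difference was -0.08 ± 0.13 (SE, 95% confidence interval -0.38 to 0.22, limma adjusted p = 0.966). Its other probe sets differed in sign. Probe set 205194_at read 10.56 and 10.64 on the sh-ACTL6A arrays, against 10.46 and 10.37 on the scramble arrays, a difference of 0.18 ± 0.12 (SE). The dimmer 244819_x_at read 5.31 and 5.83 on the sh-ACTL6A arrays, against 6.50 and 5.90 on the scramble arrays. Groups were thus apart on both, one higher and one lower in sh-ACTL6A.

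In the cytosol, MTHFD1 is the trifunctional enzyme that charges tetrahydrofolate with formate and interconverts the carbon units. Its log2 signal was 12.95 and 12.83 on the sh-ACTL6A arrays, against 12.83 and 12.92 on the scramble arrays. The groups overlapped, with a difference of 0.02 ± 0.10 (SE, 95% confidence interval -0.22 to 0.26, limma adjusted p = 0.992). Probe set 239846_at, near the threshold, differed by 0.18 ± 0.52 (SE).

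GART carries out several steps of purine synthesis, one of which takes up a formyl group from folate. The brightest of its 9 probe sets read 11.17 and 11.09 on the sh-ACTL6A arrays, against 11.00 and 10.96 on the scramble arrays. Both sh-ACTL6A values were higher, by 0.15 ± 0.13 (SE, 95% confidence interval -0.15 to 0.46, limma adjusted p = 0.941). Of its 7 probe sets above the threshold, 4 lay above 0 and 3 below, from -0.39 ± 0.37 to 0.18 ± 0.23 (SE). Probe set 217445_s_at ran the other way without overlap, at 8.42 and 8.58 on the sh-ACTL6A arrays, against 8.71 and 8.78 on the scramble arrays. The direction of GART therefore depended on the probe set.

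SHMT1, the cytosolic hydroxymethyltransferase, was dim on the probe sets used. Its brighter one read 4.95 and 6.90 on the sh-ACTL6A arrays, against 6.40 and 6.33 on the scramble arrays. One sh-ACTL6A array lay below both scramble arrays and the other above, at -1.41 and 0.54 from the scramble mean. The difference was -0.44 ± 0.60 (SE, 95% confidence interval -1.84 to 0.96, limma adjusted p = 0.963). Of genes tested, at any brightness, 0.366% had as large a gap between the sh-ACTL6A arrays. The share among genes as dim as SHMT1 was not taken. The other probe set, 217304_at, lay below the threshold at a mean of 3.49. It read 4.90 and 2.85 on the sh-ACTL6A arrays, against 3.98 and 2.23 on the scramble arrays. Its gap between the sh-ACTL6A arrays thus ran the other way.

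Among the mitochondrial enzymes SHMT2, which feeds serine carbon into the mitochondrial folate pool, read 12.42 and 11.39 on the sh-ACTL6A arrays, against 12.43 and 12.34 on the scramble arrays. Replicate 1 of sh-ACTL6A was at the scramble level, and replicate 2 was about 1 log2 unit lower, at 0.03 and -0.99 from the scramble mean. The difference of the groups was -0.48 ± 0.29 (SE, 95% confidence interval -1.14 to 0.18, limma adjusted p = 0.918).

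The other probe sets of SHMT2 had the same low array. Probe set 214437_s_at read 11.25 and 10.24 on the sh-ACTL6A arrays, against 11.16 and 11.28 on the scramble arrays. Probe set 214095_at read 9.69 and 9.25 on the sh-ACTL6A arrays, against 9.72 and 9.91 on the scramble arrays. All 3 probe sets were lowest on sh-ACTL6A replicate 2, and only the last was lower on both sh-ACTL6A arrays, at -0.12 and -0.56 from the scramble mean. They measure the same RNA, so they are not 3 independent readings of the knockdown.

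The SHMT2 value rested on 1 array. Without sh-ACTL6A replicate 1 the difference was -0.99 and passed the threshold (limma adjusted p = 0.000409), in a fit that takes the spread from the scramble pair and called 401 genes. Without sh-ACTL6A replicate 2 it was 0.03 (limma adjusted p = 0.956). ACTL6A itself was low on both arrays, at -1.71 from the scramble mean on replicate 1 and -1.55 on replicate 2. The signal of ACTB probes at the 3′ end minus the 5′ end, a reading of RNA length, was 1.21 and 0.78 on the sh-ACTL6A arrays, against 1.63 and 0.78 on the scramble arrays. The part of RNA length in the low SHMT2 value was not tested.

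A gap of this size was uncommon among bright genes. Of 5272 genes with a mean log2 signal of 10 or more, 84 differed by as much between the sh-ACTL6A arrays, 33 with replicate 2 lower (SHMT2 included) and 51 with replicate 1 lower. Between the scramble arrays 6 did. The median gap was 0.166 between the sh-ACTL6A arrays and 0.0985 between the scramble arrays.

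**Figure D2:**
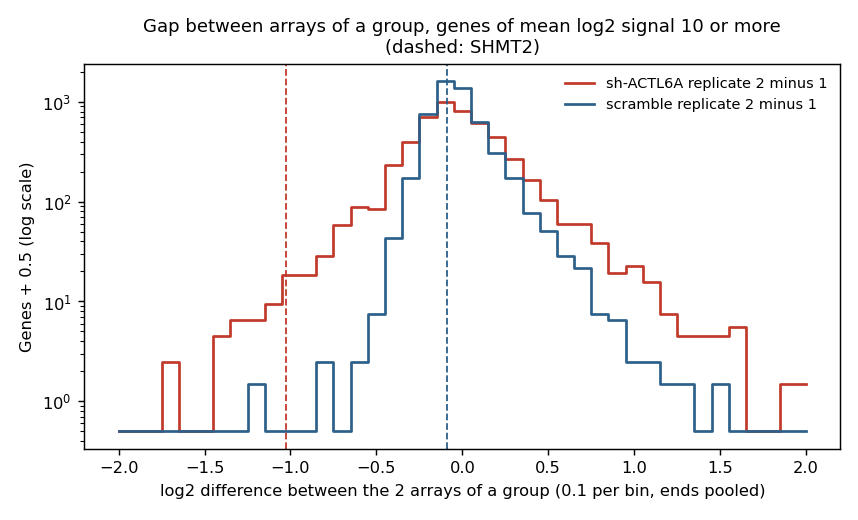
Number of genes plus 0.5 (vertical axis, log scale) by the log2 difference between the 2 arrays of a group (horizontal axis), for 5272 genes of mean log2 signal 10 or more; red is sh-ACTL6A, blue is scramble, and dashed lines mark SHMT2. The red curve is wider, and SHMT2 sits at -1.03 in its lower tail and at -0.09 in scramble.

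MTHFD2, the mitochondrial dehydrogenase and cyclohydrolase that follows SHMT2, read 14.02 and 13.98 on the sh-ACTL6A arrays, against 14.13 and 13.70 on the scramble arrays. The sh-ACTL6A values lay between the scramble values, with a difference of 0.08 ± 0.14 (SE, 95% confidence interval -0.23 to 0.40, limma adjusted p = 0.966). MTHFD2 was not low on the array where SHMT2 was. Its dimmer probe set 234976_x_at read 8.62 and 8.64 on the sh-ACTL6A arrays, against 8.99 and 8.97 on the scramble arrays. Arrays within a group differed there by at most 0.02, and the groups by -0.35 ± 0.16 (SE, 95% confidence interval -0.73 to 0.03), which did not pass (adjusted p = 0.960 from limma on every probe set). The suffix x marks a probe set whose probes can match other sequences. It is also on 244819_x_at of PSPH and 225518_x_at of MTHFD1L.

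MTHFD1L, the mitochondrial enzyme that releases formate, and ALDH1L2, the mitochondrial dehydrogenase that oxidises the formyl group, were read only by dim probe sets. For MTHFD1L, 225518_x_at read 5.05 and 1.59 on the sh-ACTL6A arrays, against 5.20 and 4.79 on the scramble arrays. Probe set 1561125_at read 5.45 and 3.79 on the sh-ACTL6A arrays, against 2.64 and 1.75 on the scramble arrays, without overlap (2.43 ± 0.94, SE, limma adjusted p = 0.960). The 2 probe sets of MTHFD1L thus ran in opposite directions. The brightest of 3 for ALDH1L2 read 4.77 and 4.90 on the sh-ACTL6A arrays, against 5.07 and 4.96 on the scramble arrays. Its difference was -0.18 ± 0.56 (SE), and the other 2 differed by -0.67 ± 0.89 and 1.22 ± 0.86 (SE). Over all 54613 probe sets limma called 0 (0%), and 4256 of the 12286 genes had groups that did not overlap. Of the 29 member probe sets 10 did not overlap, 7 of them among the 21 above the threshold. The share over genes takes the brightest probe set of each, and a share over all probe sets was not computed.

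**Figure D3:**
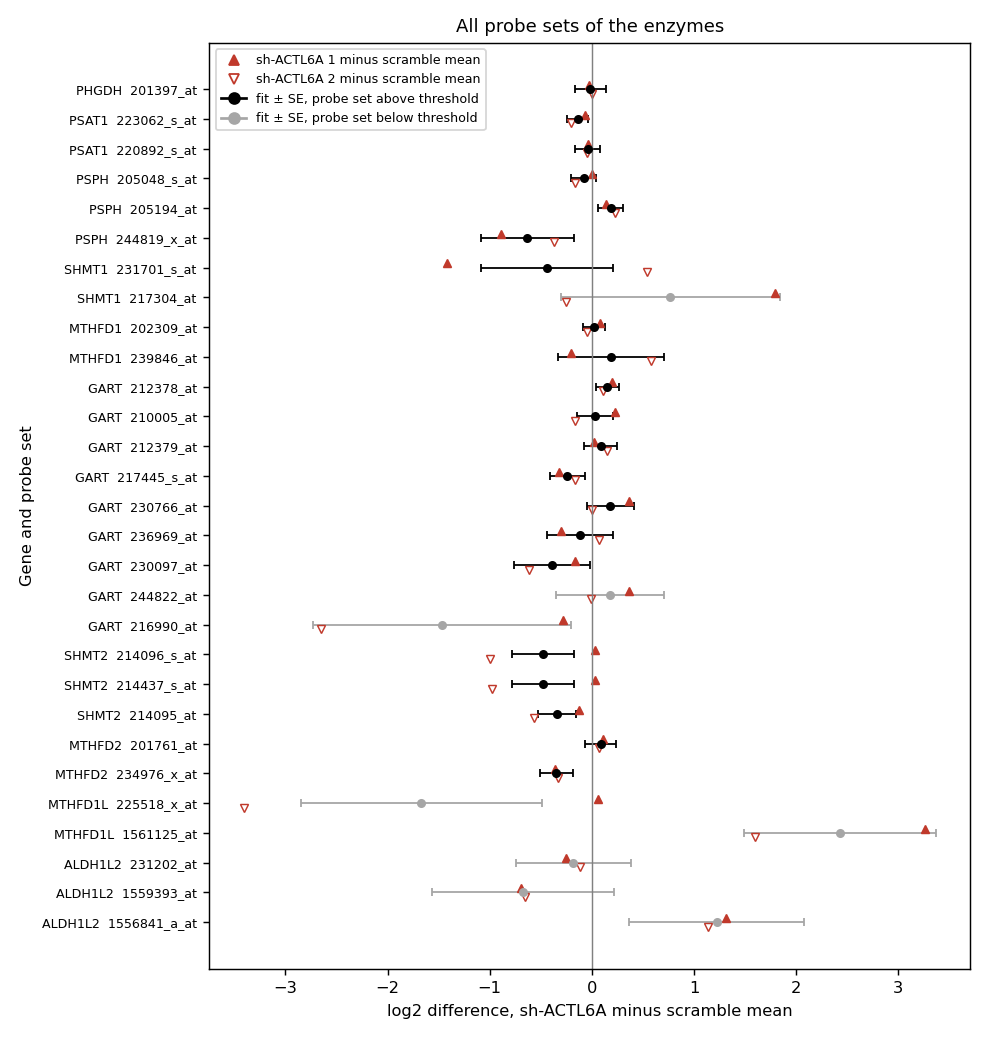
Log2 difference from the scramble mean (horizontal axis) for each of the 29 probe sets (vertical axis); triangles are the sh-ACTL6A arrays, filled for replicate 1 and open for replicate 2, and circles with bars are the limma difference ± SE, grey for probe sets below the threshold. SHMT2 is lower on replicate 2 than on replicate 1 on its 3 probe sets, by less on 214095_at. PSPH, SHMT1, GART, MTHFD2, MTHFD1L and ALDH1L2 have probe sets on both sides of 0.

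Set against each other by compartment, the medians of cytosolic and mitochondrial enzymes lay close together on one sh-ACTL6A array and apart on the other. On sh-ACTL6A replicate 1 the median difference from the scramble mean was -0.01 for the 6 cytosolic and 0.05 for the 4 mitochondrial enzymes. On sh-ACTL6A replicate 2 it was -0.02 for the cytosolic and -0.55 for the mitochondrial ones. Cytosolic minus mitochondrial was therefore -0.06 on replicate 1 and 0.53 on replicate 2, of opposite sign, with an SD of 0.417 between the 2 arrays. With each gene first averaged over both sh-ACTL6A arrays it was 0.28, smaller than that SD. Against single scramble arrays it was 0.18 and -0.18 for replicate 1, and 0.65 and 0.39 for replicate 2. On replicate 2, SHMT2 and the dim MTHFD1L were low, while MTHFD2 lay at 0.06 and ALDH1L2 at -0.11 from the scramble mean. With SHMT2 left out, a choice made after seeing the data, it was 0.09. With only the enzymes that passed the threshold it was 0.44, and there the mitochondrial side was 2 enzymes, SHMT2 and MTHFD2. No test was made of this score.

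**Figure D4:**
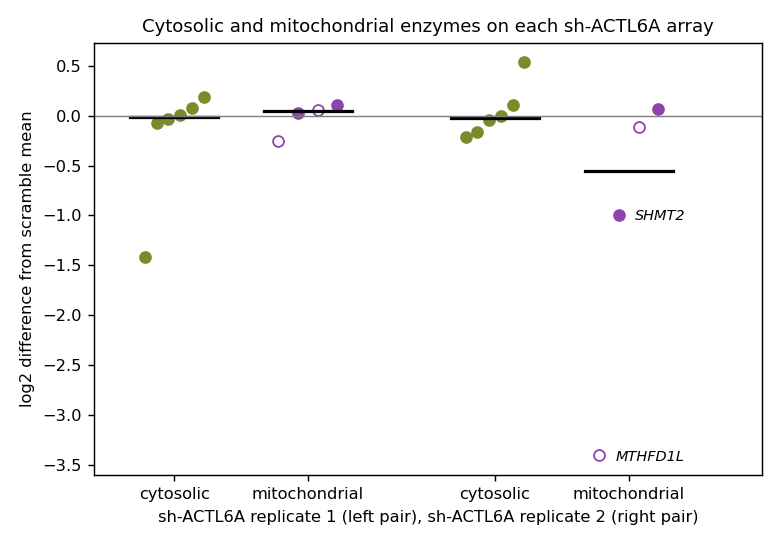
Log2 difference from the scramble mean (vertical axis) of the 6 cytosolic (green) and 4 mitochondrial (purple) enzymes on sh-ACTL6A replicate 1 (left pair) and replicate 2 (right pair); open points lie below the signal threshold and bars are medians. The mitochondrial median is 0.05 on replicate 1 and -0.55 on replicate 2, where SHMT2 and MTHFD1L are low and the other two enzymes are not.

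The pathways around these enzymes likewise held no called gene. Over all 12286 genes tested, 6373 lay above 0 and 5913 below. Of 13 tested genes for folate interconversion and uptake, 8 lay above 0 and 5 below, with a median of 0.06. FOLR1, a folate receptor, differed by 0.50 ± 0.23 (SE), and FPGS, which adds the glutamate tail that keeps folate in cells, by 0.33 ± 0.19 (SE). FTCD, a folate enzyme of histidine breakdown, differed by -1.47 ± 0.54 (SE) on a dim probe set (mean 5.89), and MTRR, which reactivates methionine synthase, by -0.24 ± 0.16 (SE). In the methionine cycle 3 of 5 tested genes lay above 0, from -0.19 for MAT2A, which makes S-adenosylmethionine, to 0.15 for AHCYL1.

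Of 10 tested genes for glycine cleavage and serine transport or use, 6 lay above 0 and 4 below, with a median of 0.06. CTH, which makes cysteine from cystathionine, differed by 0.32 ± 0.18 (SE), and GLDC, the decarboxylase of glycine cleavage, by -0.25 ± 0.26 (SE). SFXN1, the transporter that brings serine into mitochondria, read 9.94 and 11.31 on the sh-ACTL6A arrays, against 11.34 and 11.28 on the scramble arrays. SFXN1 was thus low on sh-ACTL6A replicate 1, the array on which SHMT2 was at the scramble level. A further SFXN1 probe set, 230069_at, read 9.83 and 11.65 on the sh-ACTL6A arrays, against 11.17 and 11.19 on the scramble arrays. The dimmer 232055_at, at 6.97 and 7.17 on the sh-ACTL6A arrays and 7.06 and 6.35 on the scramble arrays, was not low there. The SFXN1 difference of -0.68 ± 0.37 (SE) did not pass. It came from the brightest probe set, 218392_x_at, whose suffix x again marks probes that can match other sequences.

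In purine synthesis 2 of 9 tested genes lay above 0 and 7 below, with a median of -0.05. IMPDH1, a guanine nucleotide enzyme, read 9.41 and 9.65 on the sh-ACTL6A arrays, against 8.67 and 9.24 on the scramble arrays (0.58 ± 0.23, SE, limma adjusted p = 0.862). Its paralogue IMPDH2 differed by -0.21 ± 0.13 (SE), and GMPS by -0.16 ± 0.12 (SE).

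Of 10 regulators and other ATF4 targets, 2 lay above 0 and 8 below, with a median of -0.15 and no gene called. Of all 12286 genes tested, 5913 lay below 0. The median from the scramble mean was 0.03 on sh-ACTL6A replicate 1 and -0.19 on replicate 2. ASNS, asparagine synthetase and an ATF4 target, read 12.56 and 11.98 on the sh-ACTL6A arrays, against 12.64 and 12.58 on the scramble arrays. CHAC1, an ATF4 target that degrades glutathione, read 8.14 and 7.51 on the sh-ACTL6A arrays, against 8.29 and 8.60 on the scramble arrays. Both were lower on both sh-ACTL6A arrays and lowest on replicate 2, and neither passed (limma adjusted p = 0.918 for ASNS and 0.906 for CHAC1). ATF3 and DDIT3 were also lowest on replicate 2, with groups that overlapped, and TRIB3 and SESN2 were not. TRIB3, a pseudokinase, read 10.22 and 10.54 on the sh-ACTL6A arrays, against 10.57 and 10.82 on the scramble arrays, and was lowest on replicate 1. SESN2, a stress-induced sestrin, read 8.16 and 8.18 on the sh-ACTL6A arrays, against 7.58 and 8.40 on the scramble arrays. ATF4 differed by -0.14, MYC by -0.17 and NFE2L2, which encodes NRF2, by -0.04. These were also lowest on replicate 2, and of them only ATF4 had groups that did not overlap. For NFE2L2 and DDIT3 this ranking rested on a narrow margin. NFE2L2 read 12.60 and 12.45 on the sh-ACTL6A arrays, against 12.66 and 12.47 on the scramble arrays. DDIT3 read 10.46 and 10.20 on the sh-ACTL6A arrays, against 10.24 and 10.58 on the scramble arrays. The share of all tested genes that were lowest on replicate 2 was not taken. EIF2AK4 read 10.33 and 10.67 on the sh-ACTL6A arrays, against 10.34 and 10.25 on the scramble arrays, and was highest on replicate 2.

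**Figure D5:**
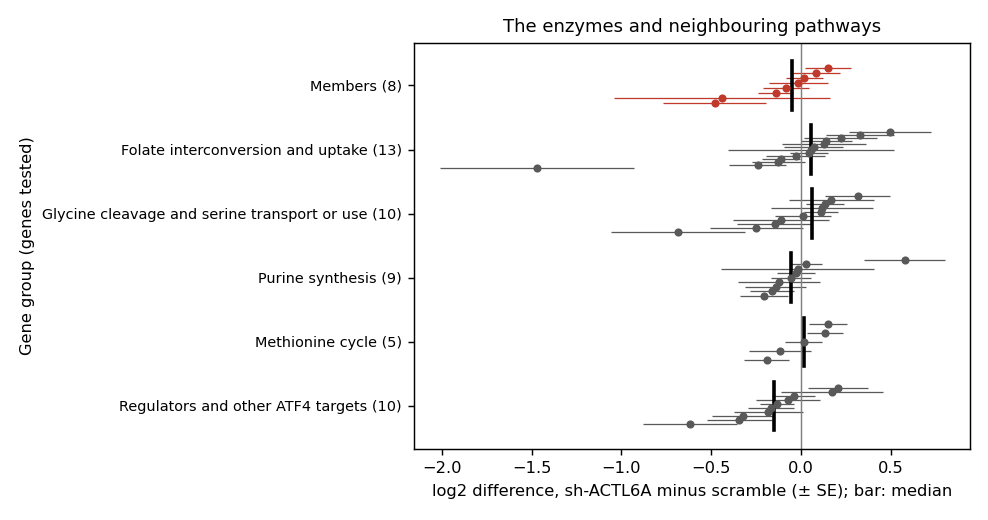
Log2 difference, sh-ACTL6A minus scramble, ± SE (horizontal axis), of the 8 tested enzymes (red) and of tested genes of 5 neighbouring groups (grey), 1 row of points per group (vertical axis); thick bars are medians. Medians lie between -0.15, for regulators and other ATF4 targets, and 0.06.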

How the data were processed

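Each of 4 arrays was deposited by the authors as log2 signals of 54675 probe sets. MAS5, named in the submitters' processing notes (version not given in the sources used here), handles and scales each array alone. The mean linear signal, trimmed by 2% at each end, was 500.0 on every array, and MAS5 values of dim probe sets vary widely. Values were used as deposited.

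Of 54613 non-control probe sets, 41091 had 1 symbol in the platform annotation, 1801 had several and 11721 had none. Probe sets with several were not named. A gene was represented by its brightest probe set and tested where its mean reached the 50th percentile. Groups came from the labels. limma 3.58.1 in R 4.3.3 (lmFit, eBayes with trend, 2-sided) was used with Benjamini-Hochberg adjustment over 12286 genes and, separately, over all non-control probe sets. The fit was tested on simulated data with the same spread in both groups. That setting does not cover the wider gaps between the sh-ACTL6A arrays.

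The members, gene lists, tests and alternatives were chosen with earlier results of these data known. The text names all members and, per list, the 2 tested genes with the smallest p above 0 and the 2 below 0, or some of these. ATF4, MYC and NFE2L2 were added as regulators, and TRIB3, ATF3, DDIT3 and other probe sets of SFXN1 after values were seen. Other settings tried were leaving out each array, blocking on replicate number, dropping the trend, quantile normalisation, median centring, an offset of 16 on the linear signal, averaging all probe sets of a gene, testing every probe set, no filter or a stricter one (75th percentile), and the t-test of the methods. For the compartments they included folate enzymes alone and means over genes.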

Additional observations from a re-analysis of the deposited data

How the results depend on the processing

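The count of 1 called gene became 0 after quantile normalisation, with no filter, without the trend, by the methods' t-test (672 genes at an unadjusted p under 0.05) and with every probe set tested. Leaving out single arrays gave 0 to 401 calls, 401 without sh-ACTL6A replicate 1, 335 without sh-ACTL6A replicate 2 and 0 without either scramble array, where the lone array is assumed to vary like the other pair. With all arrays kept, ACTL6A ran from -1.64 to -1.60. It missed the threshold after quantile normalisation (-1.64, limma adjusted p = 0.052), with no filter (-1.63, 0.0797), without the trend (-1.63, 0.556) and with every probe set tested (-1.63, 0.281). With single arrays left out it ran from -1.71 to -1.55, and the call was lost without scramble replicate 1 (0.9996) or scramble replicate 2 (0.567). By the methods' t-test the 8 tested enzymes were not called either.

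With the replicate number as a block, limma called 2 genes, ACTL6A (-1.63, adjusted p = 0.00704) and PAFAH1B2, and no enzyme. Over 12286 genes, the deviations of same-numbered arrays from their group means correlated with r = 0.0565. With 2 pairs this value cannot settle whether the numbers pair the arrays. The ACTB signal at the 3′ end minus the 5′ end was 1.21 and 1.63 on the arrays numbered 1. On both arrays numbered 2 it was 0.78. The cytosolic minus mitochondrial difference of 0.28 turned to -0.06 without sh-ACTL6A replicate 2 and to -0.05 with the mean of all probe sets, and was 0.53 without sh-ACTL6A replicate 1. The other alternatives gave 0.13 to 0.48. These were read against an SD of 0.417, which comes from the same 2 arrays and so says little about stability.

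Several small differences turned sign. PHGDH was 0.017 after median centring. With the mean of all probe sets GART was -0.18 and MTHFD2 -0.13. With single arrays left out, PHGDH ran from -0.17 to 0.14, PSPH from -0.17 to 0.004375, SHMT1 from -1.41 to 0.54, MTHFD1 from -0.044 to 0.079, SHMT2 from -0.99 to 0.031 and MTHFD2 from -0.13 to 0.30. Among single probe sets the ranges were -0.14 to 0.056 for 220892_s_at of PSAT1, -0.21 to 0.57 for 239846_at of MTHFD1 and -0.98 to 0.028 for 214437_s_at of SHMT2. For GART they were -0.17 to 0.23 for 210005_at, -0.037 to 0.21 for 212379_at and -0.30 to 0.069 for 236969_at. The cause was not tested. PSAT1 kept its sign in 13 of 13 alternatives. SHMT1 gave no value under the stricter filter and with the mean of all probe sets. SHMT2 without sh-ACTL6A replicate 1 was the one enzyme called under any alternative.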

Other observations

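The genes whose pattern over the 4 arrays was most like that of SHMT2 were sought after its values had been seen. The search covered tested genes with a mean log2 signal of 10 or more. It used the root mean square distance of log2 values centred on each gene's mean. The nearest were C17orf58 (0.0194), MTDH (0.0383) and TRAF3 (0.0421). MTDH, which encodes metadherin, read 12.07 and 11.06 on the sh-ACTL6A arrays, against 12.03 and 12.05 on the scramble arrays. TRAF3, an adaptor of TNF receptor family signalling, read 10.58 and 9.62 on the sh-ACTL6A arrays, against 10.71 and 10.59 on the scramble arrays. Both were low on sh-ACTL6A replicate 2, which follows from choosing them by their likeness to SHMT2. Of the 5272 genes with a mean log2 signal of 10 or more, 23 lay lowest on that array by at least 0.9.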
